A study of Chenopodium quinoa with 24 samples.

Results

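Leaves of quinoa plants whose shoots alone had been heated (HS) were compared with leaves of control plants on day 11 of the treatment. The comparison was taken whole, with no further choice by level or by effect: it holds every transcript that was tested in the HS and control plants of that day, 30731 of the 44776 transcripts of the table. The others have no result in the authors' output, and what set them apart, level included, was not examined. Members of the gene lists below are counted only where tested. All plants were of the accession QQ74, grown from seed of heterozygous parents under a 12-h photoperiod, and the treatments began once flowers had opened. In HS plants the roots were held at 22°C and the shoots at 35°C, and in control plants roots and shoots were both at 22°C. From each group 3 plants were sampled at ZT2, that is 2 h after lights on, and each plant is stated to be a biological replicate. HS plants of day 1, HRS plants (30°C around the roots, 35°C around the shoots) and HR plants (30°C around the roots, 22°C around the shoots) are used here only beside the HS values. The chamber that held HS and HRS plants was not the one that held control and HR plants, and every treatment had a wooden box to itself. What chamber and box add cannot be told apart from what shoot heating adds. In the read statistics of the study, every HS library compared here had a lower share of unique reads and of pseudoaligned reads than every control, HR and HRS library sampled with it, and what this adds to the results was not tested.

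Each transcript has an effect b, the mean in HS minus the mean in control plants of the natural log of the normalised estimated count plus 0.5. The levels below are the geometric means of each group that b and the overall mean imply, in normalised estimated counts, with 3 plants in each group. They are not divided by transcript length, so levels of different genes are not compared with each other. No value of a single plant was at hand, so it cannot be said whether the plants of the 2 groups overlapped. The error given instead is the standard error (SE) of b, and a transcript is called when the q-value of sleuth's Wald test is under 0.05. The outcome of limma, run on these effects with Benjamini-Hochberg adjustment, is given beside it. Gene names are those of the best Arabidopsis match. Quinoa is an allotetraploid, and most genes are present in several copies. Reads that fit several similar copies are divided among them by estimation. How alike the copies are was not examined, so the value of a single copy in a family such as RBCS1A, LHCB1.3, EF1A or HSP17.6C is uncertain. Of the called transcripts, 34 had the same b, SE and mean as another called one.

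In a heated leaf, proteins lose their fold, and heat stress transcription factors switch on genes of chaperones. Small heat shock proteins hold unfolded proteins, HSP100 disaggregases pull aggregates apart, and HSP70, HSP90 and the chaperonins refold their clients. The chloroplast captures light with its light-harvesting complexes, moves electrons through its photosystems and fixes carbon in the Calvin cycle, and these proteins are encoded by some of the most strongly expressed nuclear genes of a leaf. Ribosomes are assembled in the nucleolus, where RNA polymerase I transcribes ribosomal RNA.

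On day 11, 4174 transcripts (13.6% of those tested) were called, 1872 higher in HS plants (6.09%) and 2302 lower (7.49%). Limma called 1522 (4.95%), of which 643 were higher (2.09%) and 879 lower (2.86%), and 1519 were called by both tests. When sleuth's standard errors were instead set against a t distribution on 4 degrees of freedom, 0 remained after adjustment, with 3931 at an unadjusted p under 0.05. The median change was 2.17-fold among the transcripts called higher, and the median level of those called lower was 44.6% of control. At least 4-fold changes were called for 307 higher and 399 lower transcripts. Total scaling divides each group by the sum of its levels over the tested transcripts, in place of the size factors used by sleuth. It adds 0.24 to each b, that is a factor of 1.27. The sums are of geometric means, since counts of single plants were not at hand. Shares of the estimated counts given below are shares of the same sums. Total scaling turns the prevailing direction over, to 6631 higher and 1147 lower of 7778 called, among 30731 tested. All values below are on the authors' scale, and counts under total scaling follow in brackets for the gene lists. Those bracketed counts are to be read beside 6631 higher and 1147 lower of 30731, not beside 6.09% and 7.49%. Of the Arabidopsis genes with 2 or more called copies in quinoa, 797 had copies called in one direction and 84 in both.

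The direction of the calls differed with abundance. Transcripts were divided by mean level into 4 equal classes. In the class with the highest level 389 were called higher and 1070 lower, in the next 572 and 539, in the following one 609 and 345 and in the lowest 302 and 348. Among the 500 most abundant transcripts, 16 were higher and 192 lower, and these 500 took 47.7% of the estimated counts in control and 39.9% in HS plants. The precision also depends on abundance, with a median SE of 0.54 in the lowest class and 0.15 in the highest.

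**Figure D1:**
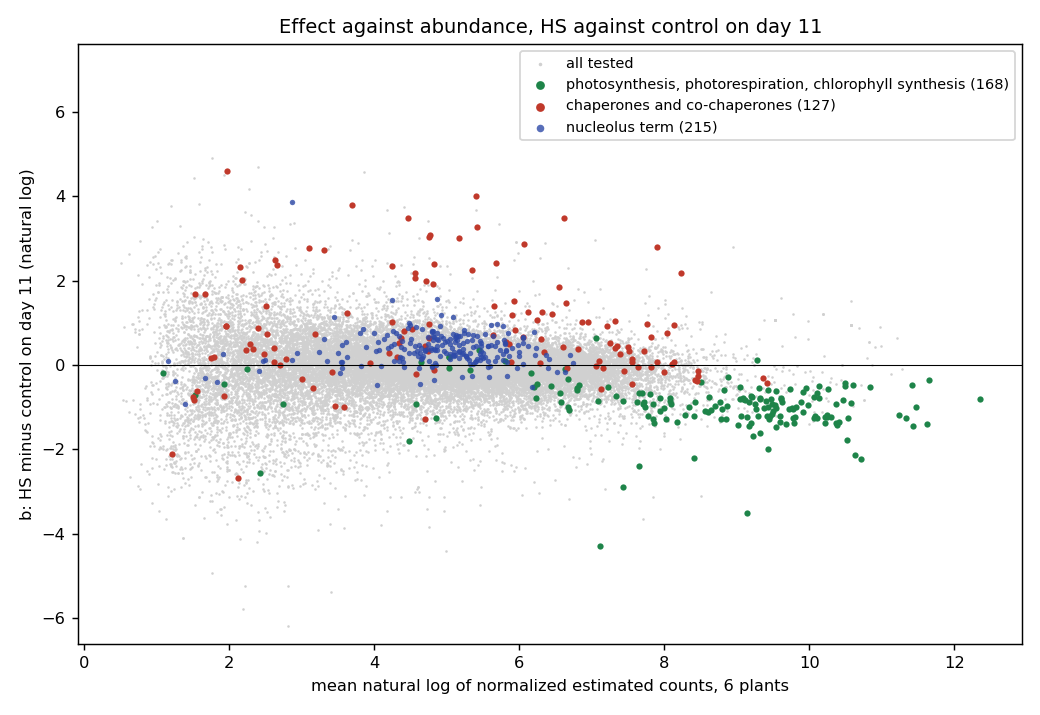
Effect b of HS against control on day 11 (vertical axis, natural log) against the mean natural log of normalised estimated counts over the 6 plants (horizontal axis), with 1 point per transcript. The 168 transcripts of photosynthesis, photorespiration and chlorophyll synthesis lie mostly below 0 at the right, the 127 chaperones and co-chaperones lie mostly above 0, and the 215 transcripts of the nucleolus term lie mostly just above 0 in the middle; under total scaling every point moves up by 0.24.

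Transcripts of the light-harvesting proteins, which bind chlorophyll and pass light energy to the photosystems, were lower in HS leaves. Of 32 tested, 26 were called lower and 0 higher (14 lower with limma, 25 lower under total scaling), with a median b of −1.18, against a median of −0.00 over all transcripts tested. Together they took 7.03% of the estimated counts in control and 2.64% in HS plants, a share that does not depend on the scaling. The copies of LHCB1.3, of the main antenna of photosystem II, were called lower in 5 of 5 cases. The largest of these changes was that of LHCB1.3 AUR62027587-RA, from 135845 in control to 14804 in HS plants (b = −2.22 ± 0.46 (SE), q = 8.68e-05, limma adjusted p = 0.0362). LHCB1.3 AUR62030254-RA went from 120813 in control to 14324 in HS plants (b = −2.13 ± 0.39 (SE), q = 4.72e-06, limma adjusted p = 0.0323). In the copies of LHCB1.3 summed, HS plants held 23.3% of the control level. LHCB3, LHCB6 and LHCA1 fell to 20.9%, 22.5% and 22.2% of control in the same sums, with both copies of each called. The smallest p in this family belonged to LHCA6 AUR62025294-RA, which fell from 1847 in control to 780.3 in HS plants (b = −0.86 ± 0.14 (SE), q = 2.59e-07, limma adjusted p = 0.0283). The decline did not extend to every antenna protein: LHCA3 was at 60.6% of control and LHCB7 at 115%, with none of their 5 copies called.

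Bulk leaf was sequenced, and fewer cells of a type cannot be told apart from less RNA per cell. The mesophyll markers tested, RBCS1A and RCA, were lower in 10 of 11 transcripts (7 with limma) and took 6.24% of the counts in control and 2.3% in HS leaves. These 11 are also members of the Rubisco and Calvin cycle list below, so they are not a separate measure of mesophyll cells. Of the guard cell markers FAMA, KAT1 and MYB60, 0 of 9 tested transcripts were called, and of the phloem markers SUC2, SWEET11 and SWEET12, 0 of 9. The guard cell list took 0.00557% of the counts in control and 0.00761% in HS leaves and the phloem list 0.0555% and 0.0826%. Of the flower organ markers 1 of 7, SEP1, was called lower, a call that ends under total scaling, and of the root markers 1 of 4, SCR, was called higher. The senescence marker SAG12 was at 159 in control and 30.5 in HS plants, with q = 0.185. The part of cell composition in the results was not tested.

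The subunits of the photosystems and the electron transport chain showed the same direction in nearly every member. Of 56 tested, 48 were called lower and 1 higher (28 and 1 with limma, 41 and 1 under total scaling), and 55 of the 56 effects were below 0, with a median b of −0.98. Their share of the estimated counts was 5.76% in control and 2.77% in HS plants. PSBO2 stabilises the water-splitting cluster of photosystem II. Its copy AUR62019263-RA fell from 63327 in control to 16104 in HS plants (b = −1.37 ± 0.23 (SE), q = 7.05e-07, limma adjusted p = 0.04), and both copies together stood at 27% of control. ATPD, the delta subunit of the chloroplast ATP synthase, went from 6983 in control to 1827 in HS plants in AUR62028884-RA (b = −1.34 ± 0.23 (SE), q = 1.45e-06, limma adjusted p = 0.0275). PSAF, the docking site of plastocyanin on photosystem I, stood at 26.4% of control, FNR2, which passes electrons from ferredoxin to NADP, at 35.8%, and PETC, the Rieske protein of the cytochrome complex, at 46.9%. PGR5 and PGRL1A, which act in cyclic electron flow, stood at 42.1% and 52.6%. The one transcript called higher was a copy of PSBY, a small photosystem II protein. This PSBY, AUR62001261-RA, was at 842 in control and 1609 in HS plants (b = 0.65 ± 0.14 (SE), q = 0.000223, limma adjusted p = 0.0366), whereas the other 2 copies were lower, PSBY AUR62005536-RA at 29.8% of control. PSBR, a subunit near the oxygen-evolving complex, was not called in either copy (63.2% of control).

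Rubisco and the Calvin cycle followed. Of 38 tested transcripts, 28 were called lower and 0 higher (20 lower with limma), with a median b of −1.01. Under total scaling 25 were lower and 2 higher. The share of these transcripts was 9.15% of the estimated counts in control and 4.28% in HS leaves. Of the 9 copies of RBCS1A, the small subunit of Rubisco, 8 were called lower, and the sum over the copies was 31.6% of control. The exception was the most abundant copy, RBCS1A AUR62042566-RA, at 343459 in control and 154483 in HS plants (b = −0.80 ± 0.33, q = 0.0888). RCA, Rubisco activase, which frees Rubisco of inhibiting sugar phosphates, was at 24.3% of control in the sum of its 2 copies. RCA AUR62040707-RA went from 223033 in control to 55563 in HS plants (b = −1.39 ± 0.29 (SE), q = 7.85e-05, limma adjusted p = 0.086). Among the other enzymes, PGK1 (phosphoglycerate kinase), FBPASE (fructose bisphosphatase), GAPA2 and GAPB (glyceraldehyde phosphate dehydrogenase) and RPE (ribulose phosphate epimerase) stood between 27.8% and 33.9% of control in the sum of their copies. PGK1 AUR62039178-RA fell from 28716 in control to 7510.5 in HS plants (b = −1.34 ± 0.20 (SE), q = 3.96e-09, limma adjusted p = 0.0283). PRK and SBPASE, with roles in regenerating the acceptor of carbon dioxide, both stood at 46.6%. FBA2, the plastid aldolase, and the regulators CP12-2 and CP12-3 were called in none of 6 copies.

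Photorespiration recycles the product that forms when Rubisco takes oxygen. Of its 15 tested transcripts, 11 were called lower and 0 higher (5 with limma, 8 under total scaling), with a median b of −0.80. PGLP1, the phosphatase that starts the pathway, fell from 4365 in control to 1297 in HS plants in AUR62000276-RA (b = −1.21 ± 0.20 (SE), q = 2.95e-07, limma adjusted p = 0.0259), and GLYK, the kinase that ends it, fell from 1360.0 in control to 468 in HS plants in AUR62011604-RA (b = −1.07 ± 0.15 (SE), q = 8.06e-10, limma adjusted p = 0.0219). GLDP1, a subunit of glycine decarboxylase, was at 59.6% of control and was not called in either copy.

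Of the enzymes of chlorophyll synthesis, 17 of 27 tested transcripts were called lower and 0 higher (10 with limma, 8 under total scaling), with a median b of −0.66. The step at which magnesium enters the ring was lower in each subunit: CHLH stood at 29.0% of control, CHLI1 at 43.8% and CHLD at 44.8%, with all 6 copies called. CHLP, which makes the phytol tail, fell from 32197 in control to 7936 in HS plants in AUR62008423-RA (b = −1.4 ± 0.21 (SE), q = 3.56e-09, limma adjusted p = 0.0292). CAO, which turns chlorophyll a into chlorophyll b, fell from 3786 in control to 1394 in HS plants in AUR62019074-RA (b = −1.0 ± 0.15 (SE), q = 1.26e-08, limma adjusted p = 0.025). HEMB1, HEMC and CHLG were not called in any copy. Chlorophyll breakdown did not show a common direction, with 1 of 21 tested transcripts higher and 3 lower (0 and 2 with limma) and a median b of 0.01. Under total scaling the counts turned over, to 4 higher and 1 lower. SGR1, which starts the removal of magnesium, was at 285% of control in the sum of its copies with neither copy called (q = 0.115 and 0.153), and HCAR and NYC1, which turn chlorophyll b back into chlorophyll a, held the 3 lower calls, of which 1 copy of HCAR remained under total scaling. CLH1, a chlorophyllase, held the higher one (b = 1.62 ± 0.58 (SE), q = 0.04, limma adjusted p = 0.0685).

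Chloroplast proteases and ELIP went both ways, with 2 of 15 higher and 4 lower (2 and 1 with limma, 2 and 1 under total scaling). FTSH6, a thylakoid protease, was higher in both copies. FTSH6 AUR62004729-RA rose from 56.5 in control to 1611 in HS plants (b = 3.34 ± 0.71 (SE), q = 0.000137, limma adjusted p = 0.0283), and FTSH6 AUR62037524-RA from 20.3 to 625 (b = 3.4 ± 0.90 (SE), q = 0.00302, limma adjusted p = 0.0379). FTSH2 and FTSH5, of the complex that removes damaged photosystem II protein, had 1 of 2 copies each called lower, at 58.4% and 61.0% of control, and neither passed limma or total scaling. DEG5, which did, fell to 49.3% of control, and a copy of DEG8 held the remaining call. ELIP2, a protein of light stress, was not called in any of its 3 copies.

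Plastid ribosomal proteins were also lower, in 17 of 78 tested transcripts, with 3 higher (6 and 2 with limma, 6 and 3 under total scaling) and a median b of −0.50. The higher ones included a copy of RPL21, AUR62040350-RA, from 42.2 in control to 228 in HS plants (b = 1.68 ± 0.23 (SE), q = 4.73e-10, limma adjusted p = 0.0206).

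**Figure D2:**
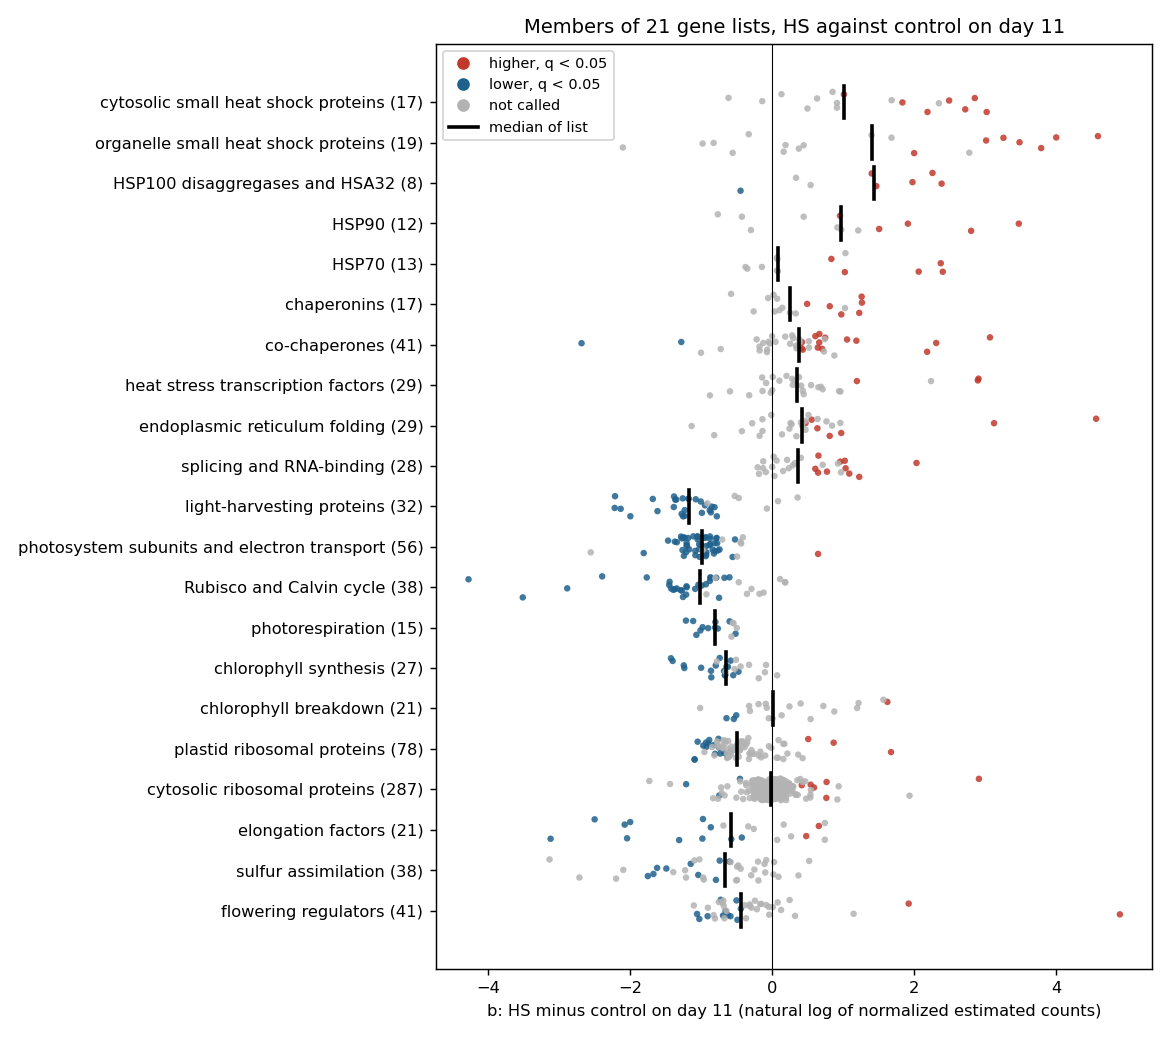
Effect b of HS against control on day 11 (horizontal axis, natural log) of each tested transcript of 21 gene lists (vertical axis, number tested in brackets), red where called higher, blue where called lower and grey where not called at q under 0.05; the black bar is the median of the list. The medians of the light-harvesting, photosystem and Calvin cycle lists lie between −1.18 and −0.98 and those of the small heat shock proteins and HSP100 between 1.01 and 1.44; under total scaling each point moves up by 0.24, which turns only the median of the cytosolic ribosomal proteins here from below to above 0.

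The chaperones were higher, each family in some of its copies only. Of the cytosolic small heat shock proteins, 7 of 17 tested transcripts were called higher and 0 lower (6 with limma, 9 under total scaling), with a median b of 1.01. HSP17.8 AUR62021644-RA had the smallest p of the family and rose from 279.9 in control to 1758 in HS plants (b = 1.84 ± 0.15 (SE), q = 2.36e-29, limma adjusted p = 0.00764). HSP17.6II AUR62020570-RA rose from 25.2 in control to 527 in HS plants (b = 3.02 ± 0.57 (SE), q = 1.19e-05, limma adjusted p = 0.0241). Of the 12 copies of HSP17.6C, 3 were called. HSP17.6C AUR62022806-RA was one of them, with a rise from 103 in control to 1794 in HS plants, and HSP17.6C AUR62029442-RA, the copy with the highest control level, was at 1826 and 1590.1 (q = 0.832).

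The small heat shock proteins of organelles had 7 of 19 tested transcripts higher and 0 lower (6 with limma, 8 under total scaling), and a median b of 1.4. HSP23.6 acts in mitochondria. HSP23.6 AUR62039962-RA rose from 29.7 in control to 1653 in HS plants, 54.7-fold (b = 4.0 ± 0.58 (SE), q = 1.61e-09, limma adjusted p = 0.0136), and HSP23.6 AUR62007509-RA 20.4-fold (b = 3.01 ± 0.34 (SE), q = 2.17e-15, limma adjusted p = 0.00778). HSP22 AUR62032476-RA, of the endoplasmic reticulum, rose from 14.8 in control to 499 in HS plants (b = 3.49 ± 0.70 (SE), q = 4.81e-05, limma adjusted p = 0.0272), and the peroxisomal HSP15.7 AUR62018223-RA from 43.6 in control to 1148 in HS plants (b = 3.26 ± 0.54 (SE), q = 2.59e-07, limma adjusted p = 0.0193). HSP21, the small heat shock protein of chloroplasts, was called in 0 of 10 copies, and the sum over its copies was 132% of control.

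Of the HSP100 disaggregases and HSA32, 5 of 8 were higher and 1 lower (5 and 0 with limma, 7 and 0 under total scaling). HSP101, which dissolves aggregates in the cytosol, stood at 516% of control over its 2 copies. HSP101 AUR62021576-RA went from 67.0 in control to 646 in HS plants (b = 2.26 ± 0.25 (SE), q = 6.13e-16, limma adjusted p = 0.00925). HSA32, known in Arabidopsis for a part in long-lasting acquired heat tolerance, stood at 908%, with HSA32 AUR62014623-RA from 37.4 in control to 412 in HS plants (b = 2.39 ± 0.34 (SE), q = 8.06e-10, limma adjusted p = 0.0175). The mitochondrial CLPB4 was called in 1 of 2 copies (b = 1.4 ± 0.26 (SE), q = 5.19e-06). The calls of the plastid CLPB3 rest on the scaling: AUR62042570-RA was at 64.2% of control (q = 0.026, limma adjusted p = 0.0667), a call that ends under total scaling, and AUR62018159-RA was at 140.2% (q = 0.118), but was called higher under total scaling (q = 0.00156).

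HSP90 had 5 of 12 transcripts higher and 0 lower (4 with limma, 8 under total scaling). The heat-induced cytosolic form, HSP90.1, was higher in both copies. HSP90.1 AUR62021118-RA rose from 668 in control to 11024 in HS plants (b = 2.8 ± 0.30 (SE), q = 2.26e-17, limma adjusted p = 0.00778) and HSP90.1 AUR62031424-RA from 132 in control to 4275 in HS plants (b = 3.47 ± 0.50 (SE), q = 1.51e-09, limma adjusted p = 0.0136). Of the constitutive cytosolic forms, HSP90.2 AUR62017128-RA was at 65.4% of control and HSP90.4 at 74.2%, with neither called, while the much weaker HSP90.2 AUR62019743-RA rose from 46.6 in control to 318 in HS plants (b = 1.91 ± 0.35 (SE), q = 4.41e-06, limma adjusted p = 0.025). HSP70 had 5 of 13 higher and 0 lower (3 with limma, 6 under total scaling), and 4 of the 5 were copies of mtHSC70-2, the mitochondrial form, at 289% of control in sum. The cytosolic HSP70-4 AUR62043061-RA was at 5623 in control and 3867 in HS plants (q = 0.206). The plastid cpHSC70-2 was higher in 1 of 4 copies, at 102% of control in sum. Chaperonins were higher in 6 of 17 and lower in 0 (3 with limma, 6 under total scaling). The mitochondrial HSP60 stood at 354% of control and its partner CPN10 at 259%, with both copies of each called, whereas the plastid CPN60B1, CPN60B2 and CPN20 were called in none of 8 copies. Sorted by location, a grouping made after the values were seen, the sums over the copies of the mitochondrial CLPB4, CPN10, HSP60-3A, mtHSC70-2, HSP60, HSP90.6 and HSP23.6 ranged from 256% to 3585% of control. Those of the plastid CPN60A1, CLPB3, cpHSC70-2, CPN60B2, CPN20, CPN60B1 and cpHSC70-1 ranged from 89.0% to 109%, with HSP21 at 132% and HSP90.5 at 262%, the latter with 1 of 3 copies called.

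Co-chaperones were higher in 14 of 41 tested transcripts and lower in 2 (9 and 1 with limma, 19 and 2 under total scaling). BAG6, a calmodulin-binding partner of HSP70, had the smallest p of all members of the lists: BAG6 AUR62022637-RA rose from 1265 in control to 11232 in HS plants (b = 2.18 ± 0.16 (SE), q = 8.51e-38, limma adjusted p = 0.00741), and the weaker copy AUR62004430-RA from 24.8 in control to 545 in HS plants (b = 3.07 ± 0.33 (SE), q = 1.18e-17, limma adjusted p = 0.00778). Both copies of a DNAJ B protein rose, to 304% of control in sum, and HOP1, HOP3, AHA1 and FES1A, which assist HSP90 and HSP70, stood between 151% and 167%. FKBP62, an immunophilin of HSP90, had 1 of 17 copies higher and 1 lower, the latter FKBP62 AUR62018396-RA, from 208 in control to 57.5 in HS plants (b = −1.28 ± 0.18 (SE), q = 1.68e-09, limma adjusted p = 0.0187).

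Of the heat stress transcription factors and their coactivators, 3 of 29 were called higher and 0 lower (2 with limma, 9 under total scaling). Both copies of MBF1C, a heat-induced coactivator, rose, MBF1C AUR62033396-RA 18.3-fold to 1661 (b = 2.91 ± 0.44 (SE), q = 1.57e-08, limma adjusted p = 0.0175) and MBF1C AUR62011023-RA from 9.73 to 185 (b = 2.9 ± 0.58 (SE), q = 3.92e-05, limma adjusted p = 0.0283). HSFB1 AUR62003880-RA rose from 50.6 to 168 (q = 0.0109, limma adjusted p = 0.0558). HSFA1B, HSFA1D, HSFA2 and HSFA3 were called in none of their 8 copies. HSFA2, the main amplifier of the heat response in Arabidopsis, was at 132% of control in the sum of 2 copies.

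Protein folding in the endoplasmic reticulum gave 7 of 29 transcripts higher and 0 lower (3 with limma, 14 under total scaling). BIP2, its HSP70, was called in the 2 weakest of 4 copies. BIP2 AUR62005192-RA rose from 4.31 in control to 461 in HS plants (b = 4.56 ± 0.58 (SE), q = 3.18e-12, limma adjusted p = 0.0107) and BIP2 AUR62000777-RA from 13.5 in control to 318 in HS plants (b = 3.13 ± 0.55 (SE), q = 1.55e-06, limma adjusted p = 0.0217), while BIP2 AUR62006067-RA was at 726 and 1692 (q = 0.329). BZIP28, the membrane-bound factor that senses unfolded protein there, rose to 175% of control (q = 0.00159, limma adjusted p = 0.0521). BZIP60, IRE1A and IRE1B, of the other branch of this response, were called in none of 7 copies.

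**Figure D3:**
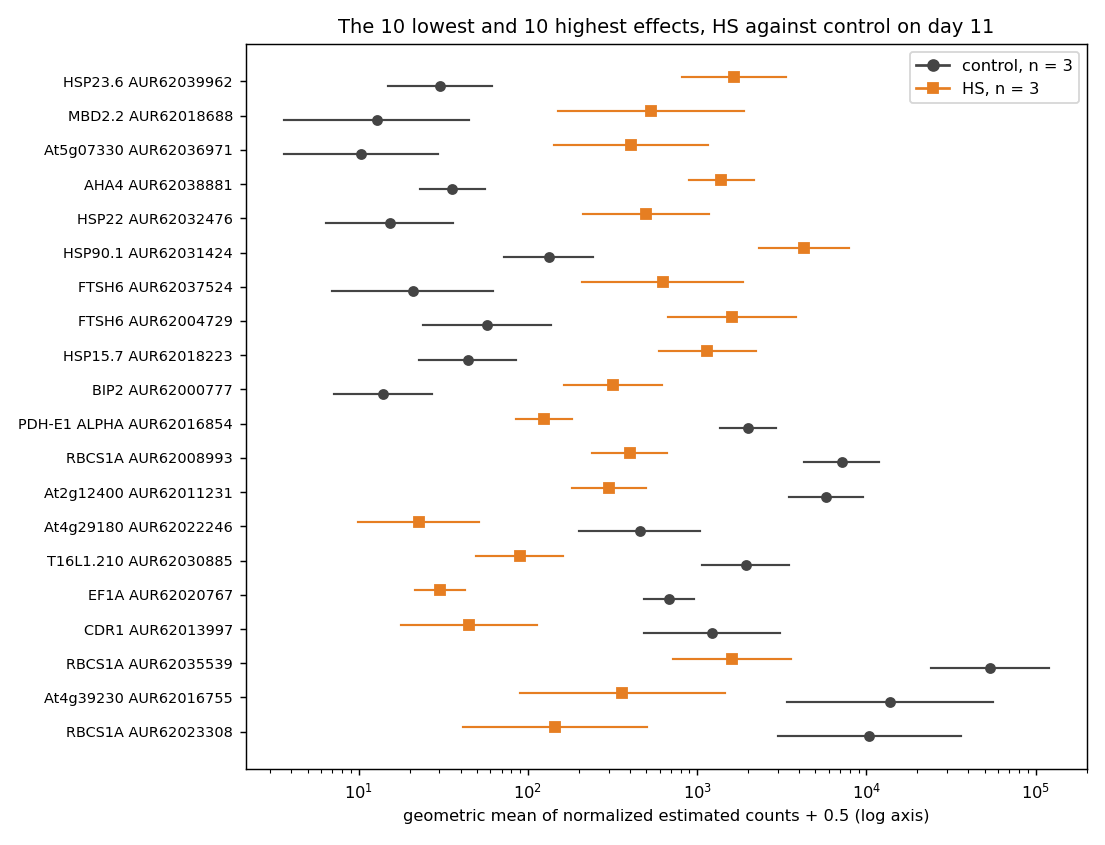
Geometric mean level in control (circles) and HS plants (squares) on day 11 (horizontal log axis, normalised estimated counts plus 0.5, n = 3 plants each) of the 10 transcripts with the lowest and the 10 with the highest b among those called by both tests with a mean level of at least 50. Lines span 1 pooled within-group SD on the natural log scale to either side; from HSP23.6 (top) to BIP2 the HS level is 22.8 to 54.7 times the control level, and from PDH-E1 ALPHA to RBCS1A (bottom) it is 6.21% to 1.39% of it.

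Among transcripts called by both tests with a mean level of at least 50, the lowest effects were held by 3 copies of RBCS1A, 1 of EF1A and 6 other genes. RBCS1A AUR62023308-RA went from 10394 in control to 144 in HS plants (b = −4.28 ± 1.02 (SE), q = 0.000831, limma adjusted p = 0.0319) and RBCS1A AUR62035539-RA from 53675 in control to 1603 in HS plants (b = −3.51 ± 0.66 (SE), q = 9.35e-06, limma adjusted p = 0.0237). At4g39230 codes for a protein like isoflavone reductases. It fell from 13773 to 361, with a within-group SD of 1.4 on the natural log scale (b = −3.64 ± 1.14 (SE), q = 0.0163, limma adjusted p = 0.049). CDR1, an aspartic protease known from disease resistance in Arabidopsis, fell from 1219 in control to 44.3 in HS plants (b = −3.3 ± 0.75 (SE), q = 0.00043, limma adjusted p = 0.0301). At2g12400, named a plasma membrane fusion protein, fell from 5757 in control to 303 in HS plants (b = −2.94 ± 0.41 (SE), q = 4e-10, limma adjusted p = 0.0136). PDH-E1 ALPHA, of the plastid pyruvate dehydrogenase that supplies fatty acid synthesis, fell from 1996 in control to 123 in HS plants (b = −2.78 ± 0.31 (SE), q = 4.99e-16, limma adjusted p = 0.00778). The remaining 2 were At4g33720 (AUR62030885-RA, T16L1.210 in the table), at 4.62% of control, and the receptor-like kinase At4g29180, at 4.96%.

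The 10 highest effects were held by the small heat shock proteins, HSP90.1, FTSH6 and BIP2 given above and by 3 other genes. AHA4, a proton pump of the plasma membrane, rose from 35.3 in control to 1391 in HS plants, 38.9-fold (b = 3.66 ± 0.36 (SE), q = 5.15e-21, limma adjusted p = 0.00741). At5g07330 rose from 9.87 in control to 407 in HS plants (b = 3.67 ± 0.86 (SE), q = 0.000607, limma adjusted p = 0.0319). A member of the HXXXD acyltransferase family, At5g42830 (AUR62018688-RA, MBD2.2 in the table), rose from 12.3 in control to 533 in HS plants with a within-group SD of 1.26 (b = 3.73 ± 1.03 (SE), q = 0.00511, limma adjusted p = 0.0396).

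Splicing factors and RNA-binding proteins were higher in 10 of 28 tested transcripts and lower in 0 (6 with limma, 17 under total scaling), with a median b of 0.36. SC35 and SCL30A, serine- and arginine-rich proteins that choose splice sites, each had several copies called. SC35 AUR62010131-RA rose from 343 in control to 896 in HS plants (b = 0.96 ± 0.14 (SE), q = 1.41e-09, limma adjusted p = 0.0212) and SCL30A AUR62015293-RA from 401 in control to 1118 in HS plants (b = 1.02 ± 0.18 (SE), q = 1.11e-06, limma adjusted p = 0.0283). SR45A AUR62001700-RA rose from 804 in control to 2265 in HS plants (b = 1.04 ± 0.21 (SE), q = 4.46e-05, limma adjusted p = 0.0321) and both copies of SR30 rose, to 187% of control in sum. SR34, RS31, RS40 and RSZ22 were called in none of 11 copies.

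Transcripts annotated to the nucleolus were higher in 64 of 215 tested (29.8%) and lower in 1, with 23 and 0 by limma and 141 and 0 under total scaling. The median b was 0.35, and 187 of the 215 effects were above 0. This term was singled out of 39 terms of cell components after its values had been seen, so its count is a description with no test. It holds 0 of the cytosolic ribosomal proteins and 92 Arabidopsis genes, 42 of which had a copy called higher. NRPA1 and NRPA2 are the core subunits of RNA polymerase I. NRPA1 AUR62043125-RA rose from 169 in control to 436 in HS plants (b = 0.95 ± 0.15 (SE), q = 2.9e-08, limma adjusted p = 0.019), and NRPA2 AUR62029096-RA from 160.0 in control to 316 in HS plants (b = 0.68 ± 0.15 (SE), q = 0.000241, limma adjusted p = 0.041). CBF5, which modifies ribosomal RNA, BOP1 and WDR12, which act together in the maturation of the large subunit, and NOP56 and NOP5-2, core proteins of the particles that guide RNA methylation, all held higher calls. BOP1 AUR62027202-RA went from 125 in control to 284 in HS plants (b = 0.82 ± 0.16 (SE), q = 3.94e-05, limma adjusted p = 0.0385), CBF5 AUR62001800-RA from 202 in control to 515 in HS plants (b = 0.93 ± 0.23 (SE), q = 0.00132, limma adjusted p = 0.0413) and WDR12 AUR62029195-RA from 88.6 in control to 189 in HS plants (b = 0.76 ± 0.17 (SE), q = 0.000491, limma adjusted p = 0.0423). EMB2762 AUR62010174-RA rose from 91.3 in control to 282 in HS plants (b = 1.13 ± 0.16 (SE), q = 2.59e-09, limma adjusted p = 0.0219) and At4g30150, a protein of the Urb2 family, from 59 in control to 283 in HS plants (AUR62013096-RA, b = 1.56 ± 0.25 (SE), q = 1.62e-07, limma adjusted p = 0.0235).

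The cytosolic ribosomal proteins themselves had 6 of 287 tested transcripts higher and 3 lower (1 and 1 with limma), and their median b of −0.01 becomes 0.23 under total scaling, where 46 were higher and 1 lower. Proteasome subunits had 0 of 78 higher and 4 lower (0 with limma), with a median of −0.14 that becomes 0.11 under total scaling, where 6 were higher and 0 lower. The copies of EF1A, the factor that brings aminoacyl-tRNA to the ribosome, were divided. Of the 21 elongation factor transcripts, 11 were called lower and 2 higher (8 and 0 with limma, 8 and 3 under total scaling), and 8 of the 11 lower were copies of EF1A. EF1A AUR62020767-RA fell from 683 in control to 29.7 in HS plants (b = −3.12 ± 0.28 (SE), q = 1.99e-25, limma adjusted p = 0.00741) and EF1A AUR62027945-RA from 1635 in control to 221 in HS plants (b = −2.0 ± 0.21 (SE), q = 5.32e-18, limma adjusted p = 0.00778). Summed over its 4 tested copies, the transcripts matched to At1g07920 were at 98.2% of control, whereas those matched to At1g07940 and At5g60390 were at 30.2% and 33.8%.

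Sulfur assimilation was lower, in 9 of 38 tested transcripts with 0 higher (5 with limma, 6 lower and 1 higher under total scaling), and a median b of −0.67. APS1, the ATP sulfurylase that activates sulfate, fell from 3959 in control to 784 in HS plants (AUR62040723-RA, b = −1.62 ± 0.19 (SE), q = 7.13e-14, limma adjusted p = 0.0136). OASC, which makes cysteine, fell from 2422 in control to 769.8 in HS plants (b = −1.15 ± 0.20 (SE), q = 1.43e-06, limma adjusted p = 0.0275), and SULTR1.3, a sulfate transporter, from 781 in control to 176 in HS plants (b = −1.49 ± 0.38 (SE), q = 0.00179, limma adjusted p = 0.0379). In starch and sucrose metabolism 13 of 76 were lower and 4 higher (9 and 2 with limma, 10 and 7 under total scaling). The subunits of the enzyme that makes the precursor of starch were among the lower ones. APL1 AUR62034675-RA fell from 2623 in control to 494 in HS plants (b = −1.67 ± 0.22 (SE), q = 7.4e-11, limma adjusted p = 0.0175), APL3 to 33.8% of control and ADG1 AUR62037153-RA to 41.3%. BAM3, a beta-amylase of starch breakdown, fell from 829 in control to 179.6 in HS plants (b = −1.53 ± 0.28 (SE), q = 4.3e-06, limma adjusted p = 0.025). SUS3, a sucrose synthase, was higher in both copies, SUS3 AUR62008699-RA from 1106 in control to 4757 in HS plants (b = 1.46 ± 0.42 (SE), q = 0.0075, limma adjusted p = 0.0455). The nitrogen list had 3 of 33 lower and 2 higher (3 and 0 with limma, 3 and 5 under total scaling), with a median b of −0.16 that becomes 0.08 under total scaling. Its 9.09% lower and 6.06% higher lie near the 7.49% and 6.09% over all transcripts. The 3 lower were both copies of GLN2, the plastid glutamine synthetase, and NIA2, nitrate reductase. GLN2 AUR62041208-RA went from 25486 in control to 7635 in HS plants (b = −1.21 ± 0.25 (SE), q = 6.12e-05, limma adjusted p = 0.0394) and NIA2 AUR62023616-RA from 5404 in control to 1264 in HS plants (b = −1.45 ± 0.43 (SE), q = 0.0102, limma adjusted p = 0.0481).

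In the antioxidant list 8 of 42 were lower and 5 higher (5 and 2 with limma, 5 and 8 under total scaling), and the median b of −0.13 becomes 0.11 under total scaling. The lower calls were led by plastid proteins. CSD2, a copper and zinc superoxide dismutase of the chloroplast, fell from 1319 in control to 106 in HS plants in AUR62014976-RA (b = −2.52 ± 0.46 (SE), q = 5.72e-06, limma adjusted p = 0.0226) and in its other copy to 8.98% of control (q = 0.000257). The thiol peroxidases PRXQ and 2CPB were lower in both copies, 2CPB AUR62006270-RA at 29.4% of control. FSD2, a plastid iron superoxide dismutase, rose from 2897 in control to 7947 in HS plants (b = 1.01 ± 0.21 (SE), q = 0.000129, limma adjusted p = 0.0384), and DHAR2, which regenerates ascorbate, from 1807 in control to 4060.3 in HS plants (b = 0.81 ± 0.16 (SE), q = 4.67e-05, limma adjusted p = 0.0385). AOX1A, the alternative oxidase of mitochondria, rose in 1 of 4 copies, AUR62038652-RA, from 29.2 in control to 197 in HS plants (b = 1.89 ± 0.29 (SE), q = 2.1e-08, limma adjusted p = 0.0216), but the sum over its copies was 53.0% of control. The uncoupling proteins UCP1 and UCP2 were called lower in 2 copies each, of which 1 copy of UCP2 passed limma and also remained lower under total scaling. The list of alternative respiration had 2 of 16 higher and 4 lower (1 and 1 with limma, 3 and 1 under total scaling), and its median turns from −0.16 to 0.08 under total scaling. GOLS1, which makes galactinol for raffinose sugars, rose in both copies, GOLS1 AUR62011750-RA from 103 in control to 309 in HS plants (b = 1.09 ± 0.18 (SE), q = 2.37e-07, limma adjusted p = 0.0283), whereas the 12 tested members of the raffinose list had 2 higher and 0 lower, also with limma and under total scaling, and a median of −0.21 that becomes 0.03 under total scaling.

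Phenylpropanoid enzymes were lower in 10 of 61 and higher in 3 (5 and 0 with limma, 8 and 5 under total scaling), with a median b of −0.51. CCR1, of lignin synthesis, fell from 1793 in control to 604 in HS plants (b = −1.09 ± 0.15 (SE), q = 4e-10, limma adjusted p = 0.0217) and PAL1, the entry enzyme, from 1506 in control to 623 in HS plants (b = −0.88 ± 0.15 (SE), q = 1.43e-06, limma adjusted p = 0.0299). Fatty acid desaturases had 3 of 16 lower and 0 higher (0 with limma, 1 under total scaling), with 2 copies of FAD4 and 1 of FAD5, and FAD8, known for its response to cold, was at 54.5% of control in AUR62022895-RA (q = 0.0661). In the abscisic acid list 4 of 50 were lower and 3 higher (1 and 0 with limma, 1 and 11 under total scaling). These 8% and 6% lie near the 7.49% lower and 6.09% higher over all transcripts. ABA1, zeaxanthin epoxidase, fell from 8601 in control to 3337 in HS plants (b = −0.95 ± 0.17 (SE), q = 2.5e-06, limma adjusted p = 0.0334), and the transcription factors ABF2 and ABF3 held the 3 higher calls. Salicylic acid and defence genes had 2 of 15 lower, BG1 and SARD1, and 0 higher (2 and 0 with limma, 2 and 1 under total scaling), with a median of −0.22 that becomes 0.03 under total scaling. SARD1, a regulator of salicylic acid synthesis, fell from 829 in control to 299 in HS plants (b = −1.02 ± 0.19 (SE), q = 4.43e-06, limma adjusted p = 0.0291). Of the aquaporins, 1 of 25 was higher (SIP1.1) and 1 lower (PIP1.4), with 0 and 1 by limma and 4 and 1 under total scaling. Of the senescence and NAC genes, 0 of 12 were higher and 1 lower (0 and 0 with limma, 0 and 1 under total scaling). Aquaporins and senescence genes thus also lay near or under the shares over all transcripts.

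Flowering regulators were lower in 11 of 41 tested transcripts and higher in 2 (6 and 1 with limma, 5 and 3 under total scaling), with a median b of −0.44. COL4 and COL5, of the CONSTANS-like family, were at 34.8% (q = 3.94e-06) and 35.9% of control (q = 0.00255). FUL, a MADS factor of the floral transition, was lower in 2 of 5 copies, FUL AUR62039675-RA from 656 in control to 340.5 in HS plants (b = −0.65 ± 0.14 (SE), q = 0.000102, limma adjusted p = 0.0349). AGL24, another MADS factor, held 2 lower calls and 1 higher among 6 tested copies. AGL24 AUR62027882-RA fell from 1519.6 in control to 737 in HS plants (b = −0.72 ± 0.14 (SE), q = 2.22e-05, limma adjusted p = 0.0362). The higher call was AGL24 AUR62027113-RA, at 0 in all control plants and at 66.6 in HS plants. That is at least 22.2-fold higher against a floor of 3 counts per plant. Only its counts in HS plants can have brought it among the tested transcripts, so its call is not support for a change. This copy was not tested in HS plants of day 1, in HRS or in HR. The clock list had 4 of 27 higher and 3 lower (0 and 2 with limma, 7 and 3 under total scaling), and its median of −0.06 becomes 0.18 under total scaling. PRR5, PRR9 and LNK2 were lower, PRR5 AUR62004561-RA from 3840.1 in control to 1978 in HS plants (b = −0.66 ± 0.15 (SE), q = 0.000589, limma adjusted p = 0.0437), and both copies of ELF3 and of TOC1 higher. Of the light signalling list 2 of 18 were higher, PHYA and HY5, and 0 lower (0 and 0 with limma, 5 and 0 under total scaling), and its median of −0.01 becomes 0.23 under total scaling. The study selected 10 transcription factors on these same samples, so their calls are not independent evidence. With limma, 4 of the 10 passed: FRS11 (b = 1.42 ± 0.21 (SE), q = 2.08e-09, limma adjusted p = 0.0193) and BHLH113 (b = 1.4 ± 0.35 (SE), q = 0.00141, limma adjusted p = 0.0489) were higher, and BHLH68 (b = −0.86 ± 0.15 (SE), q = 7.64e-07, limma adjusted p = 0.0269) and AGL14 (b = −0.59 ± 0.14 (SE), q = 0.000844, limma adjusted p = 0.0454) lower.

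The HS effect on day 11 was set beside that of day 1, measured in other plants of both groups. The difference, b on day 11 minus b on day 1, was subjected to a z test, with Benjamini-Hochberg adjusted p. It was called for 4296 of 29715 transcripts (14.5%), larger on day 11 in 1529 (5.15%) and smaller in 2767 (9.31%), whereas under total scaling 8587 were larger and 1260 smaller. Larger and smaller refer to b with its sign, so a change from above 0 to below 0 counts as smaller. On a t distribution with 8 degrees of freedom 993 were called. Total scaling lowers each HS effect of day 1 by 0.18, which leaves the signs of the day 1 medians given below as they are. The share called over all transcripts in HS on day 1 was not counted. In the large GO term cellular process, 999 of 7526 transcripts were called higher on day 1 and 1034 lower. The photosynthetic transcripts were higher than control on day 1 and lower on day 11. In the photosystem list 48 of 54 were higher on day 1 and 0 lower, with a median b of 0.51, and 53 of the 54 differences were called, each smaller on day 11 (48 under total scaling). The light-harvesting list had 23 of 32 higher on day 1, a median of 0.56 and 28 differences called smaller (26 under total scaling). The Calvin cycle list had 22 of 38 higher and 2 lower on day 1, and 29 differences smaller (28 under total scaling, where 1 was larger). For chlorophyll synthesis 22 of 26 differences were smaller (18 under total scaling), and for photorespiration 12 of 15 (9 smaller and 1 larger under total scaling). PSBO2 AUR62019263-RA had a b of 0.77 ± 0.12 on day 1 and −1.37 ± 0.23 on day 11, a difference of −2.14 ± 0.26 (z test, adjusted p = 1.59e-13). RBCS1A AUR62035539-RA went from 0.83 ± 0.33 to −3.51 ± 0.66 (z test, adjusted p = 2.87e-07). PDH-E1 ALPHA went from 1.86 ± 0.65 to −2.78 ± 0.31 (z test, adjusted p = 1.79e-08). Plastid ribosomal proteins showed it as well, with 62 of 78 higher and 0 lower on day 1, and 60 differences smaller and 1 larger (35 and 2 under total scaling).

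Small heat shock proteins and disaggregases held higher calls on both days, and many of their effects were smaller on day 11. The cytosolic small heat shock proteins had a median b of 5.13 over 24 tested on day 1, and 12 of the 17 tested on both days differed, each smaller on day 11 (11 under total scaling). Of the organelle forms 9 of 19 differed, each smaller on day 11 (8 under total scaling), and neither copy of HSP15.7 was called different (z test, adjusted p = 0.469 and 0.243). For HSP100 and HSA32 the day 1 median was 3.28, and 8 of 8 differences were smaller (7 under total scaling). HSP101 AUR62021576-RA had a b of 4.89 ± 0.27 on day 1 and 2.26 ± 0.25 on day 11 (z test, adjusted p = 3.7e-10). HSP17.6C AUR62001804-RA and AUR62009590-RA had a b of 6.9 and 6.55 on day 1 and were not called on day 11. Some heat-induced transcripts were not called different between the days. HSP90.1 AUR62031424-RA was at 4.96 ± 0.48 and 3.47 ± 0.50 (z test, adjusted p = 0.146), MBF1C AUR62033396-RA at 3.47 ± 0.47 and 2.91 ± 0.44 (adjusted p = 0.643 by the same test) and BIP2 AUR62005192-RA at 3.93 ± 0.56 and 4.56 ± 0.58 (adjusted p = 0.684 by the same test). With errors of this size such a difference is not bounded closely: the SE of the BIP2 difference was 0.80. The nucleolus term moved the other way, with 53 of 213 lower and 10 higher on day 1, and 78 differences larger and 2 smaller on day 11. In the GO term cellular process, 1034 of 7526 were lower and 999 higher on day 1. CBF5 AUR62001800-RA had a b of −0.63 on day 1 and 0.93 on day 11 (z test, adjusted p = 0.000112). Of the splicing list 5 differences were larger and 0 smaller (17 and 0 under total scaling).

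**Figure D4:**
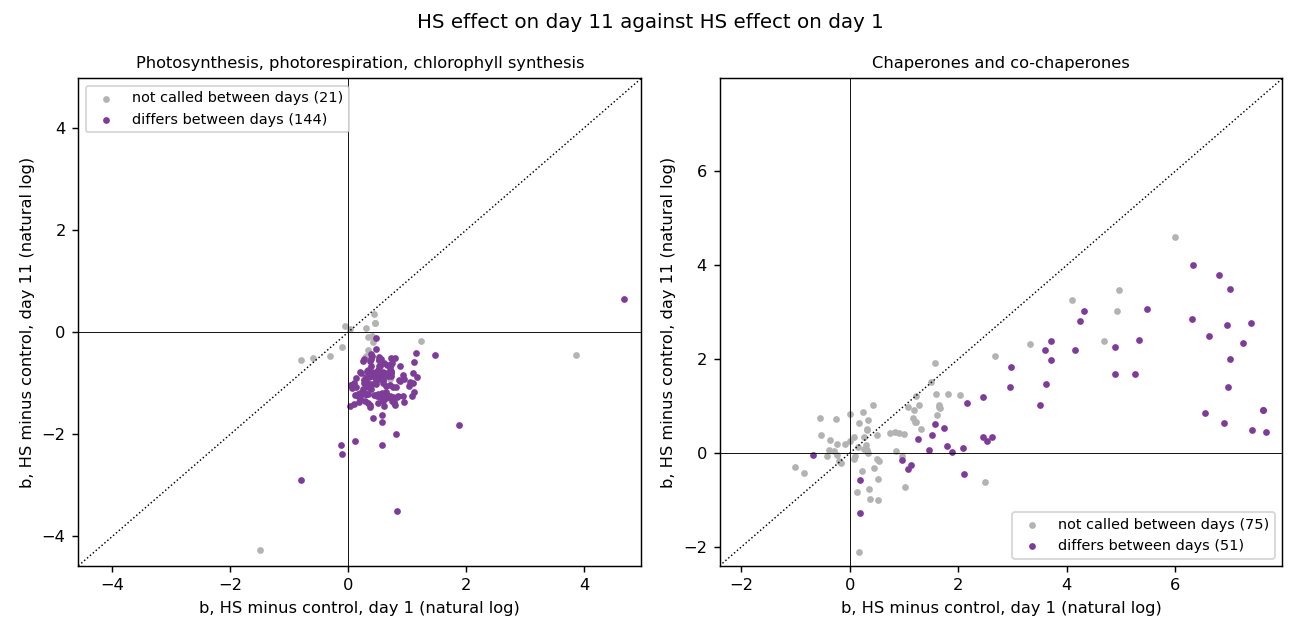
Effect b of HS against control on day 11 (vertical axis) against that on day 1 (horizontal axis), both natural log, 1 point per transcript tested on both days, purple where the z test called the difference; the dotted line marks equal effects. In the left panel 150 of 165 photosynthetic transcripts lie above 0 on day 1 and below 0 on day 11, and in the right panel 90 of 126 chaperone transcripts lie above 0 on both days and 100 below the dotted line; total scaling lowers the day 1 effects by 0.18 and raises those of day 11 by 0.24.

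HRS plants, with heated roots as well, and HR plants were compared with the same 3 control plants of day 11, so their effects share those plants with the HS effects and are given side by side. In HRS the median b of the photosynthetic lists was −0.13 for light-harvesting proteins, −0.06 for the photosystems and −0.00 for the Calvin cycle, with 8, 2 and 3 transcripts called lower. In HR the medians were 0.27, 0.23 and 0.29, with 0 called lower in each. The shares called over all transcripts in HRS and in HR against control were not counted, so the 0 in HR is not read as particular to these lists. In HR the cytosolic ribosomal proteins, too, had 0 of 285 called higher and 0 lower. In the GO term cellular process, 597 of 7604 transcripts were called higher in HRS and 427 lower. Of HRS against HS plants, in which the control mean cancels, a z test with the largest SE that the residual variances allow called 1159 of 29947 transcripts (3.87%), 854 higher in HRS (2.85%) and 305 lower (1.02%). Under total scaling that direction turns over, with 248 higher and 1488 lower. On a t distribution with 4 degrees of freedom 0 were called, with 1743 at an unadjusted p under 0.05, and 4566 by the z test. Of the photosystem list 30 of 56 were higher in HRS than in HS and 0 lower (11 and 1 under total scaling), of the Calvin cycle 22 of 38 and 0 (14 and 0), of the light-harvesting list 15 of 32 and 0 (6 and 0) and of chlorophyll synthesis 13 of 27 and 0 (6 and 0). RBCS1A AUR62035539-RA had a b of 0.39 ± 0.43 in HRS and −3.51 ± 0.66 in HS (difference 3.9 ± 0.79, z test, adjusted p = 0.000344), and PSBO2 AUR62019263-RA −0.06 ± 0.16 and −1.37 ± 0.23 (z test, adjusted p = 0.00125). APS1 was at 0.14 in HRS, −1.62 in HS and −1.8 in HR.

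Several heat-induced transcripts were higher in HS than in HRS, although the shoots of both stood at 35°C. BAG6 AUR62022637-RA had a b of 0.72 ± 0.13 in HRS and 2.18 ± 0.16 in HS (z test, adjusted p = 1.1e-08), and AHA4 0.58 ± 0.60 and 3.66 ± 0.36 (z test, adjusted p = 0.00209). MBF1C AUR62033396-RA was at 0.44 and 2.91 (z test, adjusted p = 0.000331), HSP90.1 AUR62021118-RA at 1.38 and 2.8 (z test, adjusted p = 0.00247) and HSP18.2 AUR62022816-RA at −0.70 and 1.01 (z test, adjusted p = 5.84e-07). Of the co-chaperones 6 of 40 were lower in HRS than in HS and 1 higher (9 and 1 under total scaling), and of the heat stress transcription factors 5 of 28 and 0 (7 and 0). The counts were 2 of 8 and 0 for HSP100 and HSA32 (5 and 0), 2 of 12 and 0 for HSP90 (3 and 0) and 4 of 29 and 0 for folding in the endoplasmic reticulum (7 and 0), beside 1.02% lower in HRS over all transcripts. Fewer differed elsewhere, with 1 of 14 and 0 for cytosolic small heat shock proteins (2 and 0) and 1 of 13 and 0 for HSP70 (1 and 0). The organelle small heat shock proteins had 2 of 17 and 0 (3 and 0). Of the chaperonins 0 of 17 differed in either direction, and their median difference of 0.62 was towards HRS (0.37 under total scaling). Cytosolic ribosomal proteins, with a median b of −0.01 in HS, had one of 0.69 in HRS, where 211 of 286 were called higher, and 132 of 284 were higher in HRS than in HS, 25 under total scaling. In the GO term cellular process, 597 of 7604 were called higher in HRS. The nucleolus term, with a median of 0.35 in HS, had 0.22 in HRS, and 1 transcript differed between them.

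**Figure D5:**
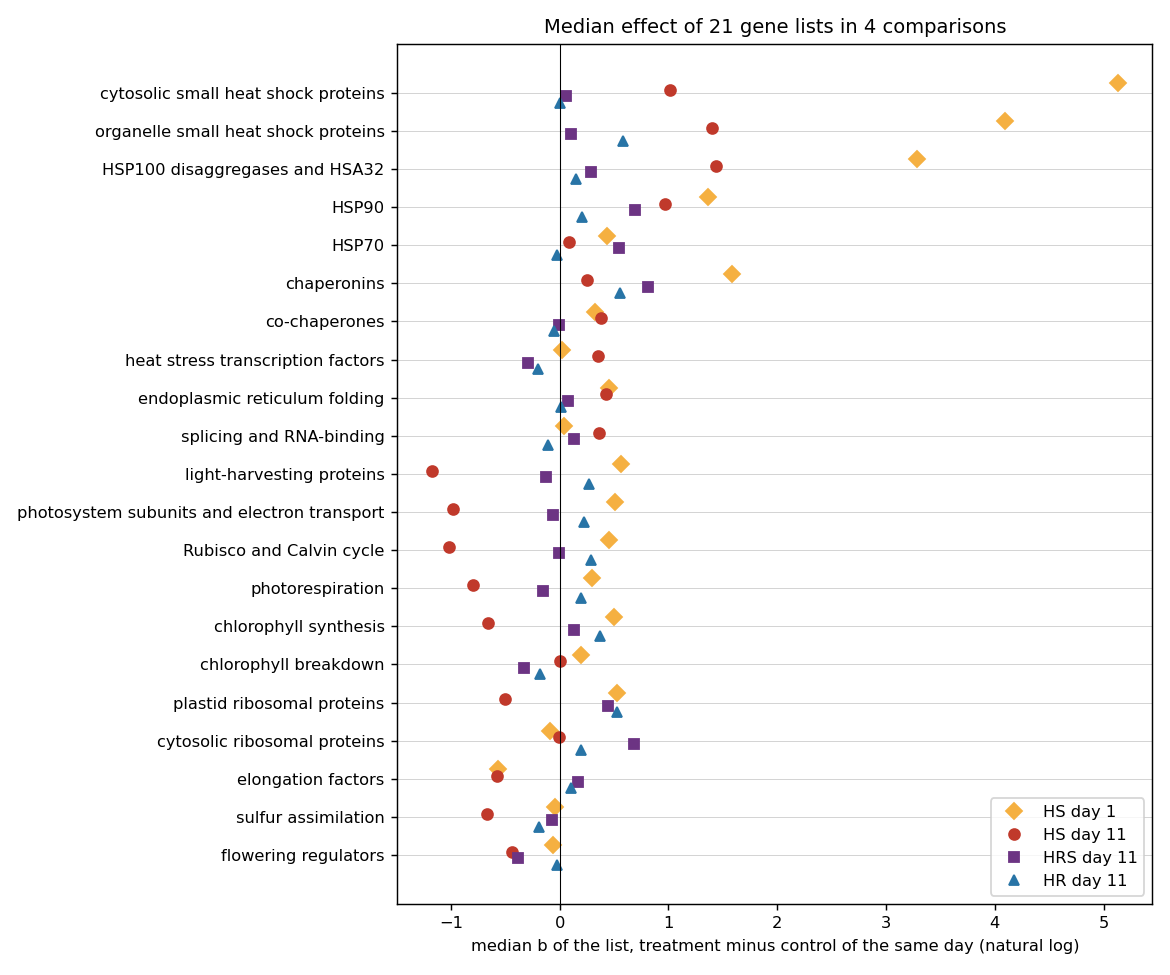
Median b (horizontal axis, natural log, treatment minus control of the same day) of 21 gene lists (vertical axis) in HS on day 1 (diamonds), HS on day 11 (circles), HRS on day 11 (squares) and HR on day 11 (triangles); the 3 treatments of day 11 share 3 control plants. On day 11 the HS medians of the light-harvesting, photosystem and Calvin cycle lists lie between −1.18 and −0.98 and those of HRS and HR between −0.13 and 0.29, while on day 1 those of HS lie between 0.45 and 0.56. Total scaling adds 0.24 to HS on day 11, which turns the sign of the cytosolic ribosomal proteins. It lowers HS on day 1 by 0.18, which turns the heat stress transcription factors and the splicing list from above to below 0.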

How the data were processed

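Strand-specific, paired-end RNA libraries were made from leaves of single plants, 3 in each group and on each day. Reads were trimmed by the authors (Trimmomatic 0.38) and passed to kallisto 0.44.0, which estimated counts on the quinoa transcriptome v1.0 with 100 repeats of the estimate, and each treatment was tested against its day's control in sleuth 0.30.0. The deposited table has 69 columns and holds 44776 transcripts. For each comparison the authors give Wald test p-values and q-values, effects b and their SE on a natural log scale, and variance components of the log estimated counts (residual, technical and shrunken). No column held values of single plants, and 0 were used. The comparisons are the authors' own output, since the table gives no other measurement. From b and the mean, group means were rebuilt and exponentiated, less the offset of 0.5 (geometric means of normalised estimated counts), and within-group SDs were taken from the residual variance. Depth per plant was not used here, so precision is given as SE (median 0.22, within-group SD 0.24).

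The second test, limma 3.58.1 in R 4.3.3, took b with its residual variance, with a trend over abundance and Benjamini-Hochberg adjustment. The effects of HS on the days were compared by a z test on the sum of squared SEs. HRS was compared with HS by a z test with the largest SE that both residual variances allow. Total scaling divides each group by the sum of its exponentiated means. Other steps were done in Python 3.11.15 with pandas 2.3.3, numpy 2.4.6 and scipy 1.17.1, and plots with matplotlib 3.10.9. The steps were tested on simulated data. Alternatives were other thresholds, a minimum effect or abundance, other variances and t distributions, other scalings and one count per Arabidopsis locus.

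The comparison and all 36 gene lists were chosen with earlier results of these data known. Most of the lists were matched by Arabidopsis locus. Those of the cytosolic and plastid ribosomal proteins and proteasome subunits were taken by name from the annotation. Cell type markers were further lists. Named transcripts were the 10 highest and 10 lowest b among those called by both tests with a mean level of at least 50 and an Arabidopsis match, up to 4 members of each list with the smallest p, the 10 transcription factors of the study and the 3 smallest p of each difference test. These gave 188 transcripts, and further members are named with their values. GO terms with at least 30 tested transcripts were counted as the table assigns them.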

Additional observations from a re-analysis of the deposited data

Results flagged for a closer look

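The results below are those in which the effect of HS differed between days, or HRS differed from HS, by a test of the difference itself (z test, Benjamini-Hochberg adjusted over every transcript tested). Between day 11 and day 1, 4296 transcripts differed, and between HRS and HS on day 11, 1159.

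Of the gene lists, cell type markers aside, those with 50% or more of the members different between the days were the photosystem subunits (53 of 54), light-harvesting proteins (28 of 32), Rubisco and the Calvin cycle (29 of 38), chlorophyll synthesis (22 of 26), photorespiration (12 of 15), plastid ribosomal proteins (61 of 78), plastid proteases and ELIP (8 of 15), HSP100 and HSA32 (8 of 8), cytosolic small heat shock proteins (12 of 17) and elongation factors (12 of 21). Except for 6 elongation factors and 1 plastid ribosomal protein, each of these differences was negative, that is, b was lower on day 11 than on day 1. In the photosystem, light-harvesting and Calvin cycle lists the median b went from above 0 to below 0, for the photosystems from 0.51 to −0.98. For HSP100 and HSA32 and for the cytosolic small heat shock proteins it fell but stayed above 0. Between HRS and HS, more than 50% of the photosystem list (30 of 56) and of the Calvin cycle list (22 of 38) differed, all higher in HRS.

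Between days the smallest p-values belonged to PSBY AUR62001261-RA, with a b of 4.67 on day 1 and 0.65 on day 11 (difference −4.02 ± 0.29), HSP17.6C AUR62001804-RA, with 6.9 and 0.63 (difference −6.27 ± 0.51), and HSP17.6C AUR62009590-RA, with 6.55 and 0.85 (difference −5.7 ± 0.47). PSBY was thus the photosystem transcript called higher on both days. Between HRS and HS they belonged to EF1A AUR62027945-RA, with a b of 0.40 in HRS and −2.0 in HS (difference 2.4 ± 0.28), At5g17165 AUR62005925-RA, with −1.35 and 0.58 (difference −1.93 ± 0.23), and BAG6 AUR62022637-RA, with 0.72 and 2.18 (difference −1.47 ± 0.21). The values of EF1A and HSP17.6C are those of single copies in families with several copies, how alike they are was not examined, and reads may be divided among them by estimation.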

How the results depend on the processing

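No paired analysis was possible because the table holds no values of single plants. For the same reason no replicate could be left out. The 4174 calls of HS against control became 2227 at q under 0.01, 2509 with an effect of at least ln 2, 8376 with each transcript's own residual variance, 1522 with limma, 7778 under total scaling and 0 with a t distribution on 4 degrees of freedom (unadjusted p under 0.05: 3931 with the t distribution, 8409 with limma, 8371 with sleuth). A looser q, adjustment over all 6 comparisons, an abundance minimum, centring and counting each locus once left 3771 to 5960. Differences between days were called for 993 transcripts with a t distribution on 8 degrees of freedom, 2504 at adjusted p under 0.01 and 9847 under total scaling, beside 4296, and limma called 3729. HRS against HS gave 5116 calls with equal spread in every group and 0 with a t distribution on 4 degrees of freedom (1743 at unadjusted p under 0.05), beside 1159. Lists with 50% or more of their members called numbered 7, and 3 with limma. Of the 188 named transcripts, 37 lost their call with limma and 19 under total scaling, and 7 gained one under total scaling. Limma uses the same b, so no sign could change with it. Of the 159 called, none changed sign under total scaling, and the signs of the others were not compared. In 10 lists, cell type markers included, no member passed limma. Markers aside, these were senescence and NAC factors, light signalling, fatty acid desaturases and proteasome subunits. Among transcripts of low abundance the SE limits what can be seen, and a missed call there does not show that levels were alike.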

Other observations

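The GO terms given in the table were counted in the HS comparison of day 11, and those below were chosen after their values were seen, as a description with no test. Beside the nucleolus, transcripts of ribonucleoprotein complexes were higher in 91 of 512 and lower in 1 (27 and 0 with limma), with a median b of 0.22. Those of rRNA metabolism were higher in 47 of 253 and lower in 1 (13 and 1 with limma). Those of RNA metabolism were higher in 91 of 481 and lower in 8, with a median of 0.46. Protein folding held 55 higher and 13 lower of 252 (33 and 3 with limma). Mitochondrial transcripts had 72 higher and 38 lower of 597 (183 and 19 under total scaling), and those of mitochondrial translation had 8 higher and 2 lower of 34. Total scaling raises every b, so it could not have turned these counts towards lower.

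Transcripts of the cell wall were lower in 40 of 216 and higher in 8 (19 and 2 with limma), with a median b of −0.39, and under total scaling 29 were lower and 18 higher. On day 1 the same term had 24 higher and 18 lower of 197 in HS plants, beside 999 and 1034 of 7526 for cellular process. Of thylakoid transcripts 24 of 76 were lower and 3 higher, and of the generation of precursor metabolites and energy 40 of 112 were lower and 8 higher. Plasma membrane transcripts had 216 lower and 66 higher of 1918, but under total scaling 115 were lower and 236 higher, so that their direction rests on the scaling.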
